A study of Mus musculus with 125 samples.

Results

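Chromatin accessibility was examined at 35 genes that define the B cell lineage and the pre-B cell receptor (pre-BCR) in cells of mouse B-ALL, an acute leukaemia of B cell precursors, cultured with or without natural killer (NK) cells. They were 16 transcription factor genes, 5 genes grouped as pre-BCR subunits, 5 genes of pre-BCR signalling, 3 genes of V(D)J recombination and 6 surface receptor genes. A consensus peak was assigned to a member gene where its centre lay within 3 kb of a transcription start site (TSS) of the gene (promoter peak) or elsewhere in its gene body (intragenic peak). This gave 54 promoter and 688 intragenic peaks, 742 of the 256400 consensus peaks of the series. The rule used no measured value. A peak is named by its gene and the distance of its centre from the nearest TSS of that gene, negative when upstream (in a gene body, upstream of an internal TSS), and the leading promoter peak of a gene is the tested one closest to a TSS.

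The data were 125 ATAC-seq libraries, in which the Tn5 transposase inserts adapters into open DNA, from 4 B-ALL lines. Bone marrow of male and female C57BL/6 mice was transformed by a retrovirus carrying BCR/ABLp185, the fusion kinase of Philadelphia chromosome-positive leukaemia, so all groups carry this oncogene as well as a lentiviral GFP gene with a DNA barcode. Lines A and B (A/B) share 1 parental line and lines C and D (C/D) a different one. The lines of a pair are therefore not independent, and the 2 pairs stand for 2 parental lines. The cells were grown alone, or with IL-2-activated primary mouse NK cells, all with recombinant human IL-2, and GFP+ cells were sorted before transposition. Each experiment had 3 arms: cells alone, sampled at an early time point (TP1), and co-cultures sampled at TP1 and at a late time point (TP2). TP1 was day 4 and TP2 day 10 by the labels, or days 6 and 16 in experiment 9.7, although TP2 falls later in the text of the study. Cells alone were sampled at TP1, so the length of culture and NK exposure cannot be told apart at TP2. The 42 groups held 3 libraries each, except D alone in experiment 9.6.1 with 2, and there were 6 line-by-experiment combinations for A/B and 8 for C/D.

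B lineage identity is set by a network of transcription factors. E2A (Tcf3) and EBF1 act early, EBF1 and PAX5 commit progenitors to the lineage, and Ikaros (Ikzf1), Aiolos (Ikzf3) and IRF4 act at the pre-B stage. The pre-BCR pairs an immunoglobulin heavy chain with the surrogate light chain proteins VpreB1 and lambda5 (Igll1) and signals through Ig-alpha (Cd79a) and Ig-beta (Cd79b) to the kinases SYK, BLK and BTK and the adaptor BLNK. RAG1 and RAG2 cut DNA in V(D)J recombination, and the terminal transferase Dntt adds nucleotides at the joins.

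The sequences of 6 regions on which the results turn are shown from GRCm38, 5' to 3' on the strand of the gene. The first 3 are RefSeq promoters, from 250 bases before to 50 bases after the start, which lie inside the leading promoter peak of Pax5 (chr4:44710645-44710944, minus strand), of Cd79a (chr7:24897247-24897546, plus strand) and of Cd38 (chr5:43868559-43868858, plus strand). The others are the central 300 bases of the peaks Ikzf3 +2.9 kb (chr11:98542733-98543032, minus strand, in an intron) and Dntt -2.4 kb (chr19:41026773-41027072, plus strand, upstream of the gene), which carry the largest promoter changes of lines A and B at TP1, and of Bank1 +224.6 kb (chr3:136101261-136101560, minus strand, in an intron), which rose in both pairs of lines. Capitals mark matches to short B lineage motifs, searched on both strands.
Pax5 promoter: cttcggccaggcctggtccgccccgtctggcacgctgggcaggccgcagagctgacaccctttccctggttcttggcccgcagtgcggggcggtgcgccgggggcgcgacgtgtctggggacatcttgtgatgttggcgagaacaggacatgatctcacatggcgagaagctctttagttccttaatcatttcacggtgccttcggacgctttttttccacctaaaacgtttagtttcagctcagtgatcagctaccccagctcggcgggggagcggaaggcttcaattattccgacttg
Cd79a promoter: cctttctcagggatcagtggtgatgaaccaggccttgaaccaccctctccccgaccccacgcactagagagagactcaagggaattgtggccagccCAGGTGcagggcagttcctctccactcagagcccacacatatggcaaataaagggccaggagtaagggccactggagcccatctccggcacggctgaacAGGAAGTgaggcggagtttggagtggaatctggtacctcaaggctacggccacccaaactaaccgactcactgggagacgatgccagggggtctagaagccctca
Cd38 promoter: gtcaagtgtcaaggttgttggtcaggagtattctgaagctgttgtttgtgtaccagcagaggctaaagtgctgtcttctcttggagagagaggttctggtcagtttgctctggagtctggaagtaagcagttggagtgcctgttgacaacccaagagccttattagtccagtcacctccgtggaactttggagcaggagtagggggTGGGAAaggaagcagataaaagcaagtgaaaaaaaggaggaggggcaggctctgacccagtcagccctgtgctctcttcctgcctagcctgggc
Ikzf3 +2.9 kb: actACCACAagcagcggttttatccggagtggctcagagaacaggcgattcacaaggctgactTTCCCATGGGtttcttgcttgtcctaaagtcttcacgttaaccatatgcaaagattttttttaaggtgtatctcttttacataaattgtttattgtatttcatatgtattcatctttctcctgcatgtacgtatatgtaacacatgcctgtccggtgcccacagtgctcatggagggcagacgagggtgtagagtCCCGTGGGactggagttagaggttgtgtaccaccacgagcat
Dntt -2.4 kb: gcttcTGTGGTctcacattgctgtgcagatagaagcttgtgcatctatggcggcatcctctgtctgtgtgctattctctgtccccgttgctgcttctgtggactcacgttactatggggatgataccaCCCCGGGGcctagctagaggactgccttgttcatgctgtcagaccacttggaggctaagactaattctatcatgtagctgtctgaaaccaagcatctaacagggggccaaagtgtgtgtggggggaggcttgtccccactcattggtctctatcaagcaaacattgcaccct
Bank1 +224.6 kb: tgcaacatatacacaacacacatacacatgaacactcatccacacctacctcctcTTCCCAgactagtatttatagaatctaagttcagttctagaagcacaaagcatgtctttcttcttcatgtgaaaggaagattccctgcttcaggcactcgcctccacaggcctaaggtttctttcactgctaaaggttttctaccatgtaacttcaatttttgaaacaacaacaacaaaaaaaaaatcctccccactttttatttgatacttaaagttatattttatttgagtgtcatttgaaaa

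In the Cd79a promoter the capitals are an E2A-type E-box and a PU.1/Spi-B match, and in the Cd38 promoter an Ikaros match. Ikzf3 +2.9 kb holds a RUNX match, an Ikaros match that overlaps a match to the EBF1 core, and another match to the EBF1 core. Dntt -2.4 kb holds a RUNX match and a match to the EBF1 core, and Bank1 +224.6 kb an Ikaros match. The letters searched were CCCNNGGG (EBF1 core), TGGGAA (Ikaros), AGGAAGT (PU.1/Spi-B), ATGCAAAT (octamer), CAGGTG (E-box), TGTGGT (RUNX), GTAAACA (FOXO), GAAANNGAA (IRF) and TTCNNNGAA (STAT5), and the Pax5 window holds none of them. RefSeq promoters were at hand for 29 of the 35 genes, all but Blk, Cd24a, Cd79b, Ets1, Ikzf3 and Spi1. The EBF1 core was present in 20.7% of these promoters and in 13.7% of all 32851 promoters of the table, PU.1/Spi-B in 24.1% and 9.35%, the E-box in 34.5% and 20.2%, the octamer in 6.90% and 1.74%, RUNX in 20.7% and 16.8%, Ikaros in 17.2% and 25.6%, IRF in 6.90% and 8.56%, STAT5 in 6.90% and 8.30%, and FOXO in 0 of 29 and 3.65%. In the central 300 bases of the 160 member intragenic peaks tested over all lines, the EBF1 core stood in 14.4%, against 12.5% of the other tested peaks away from promoters, and the E-box in 21.9% against 23.5%. These are matches of letters, not measured binding.

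The libraries held between 3083547 and 13580746 counts in consensus peaks (median 7738029). In 2 groups of line C, the counts of replicates 2 and 3 agreed within sampling noise, and each such pair entered as the mean of both, as 1 sample, which left 123 samples. A peak was tested where every library of at least 1 group had a broad peak there and the counts passed the filter of edgeR. Replicate 2 of line D at TP2 in experiment 9.6 stood apart. It overlapped 97577 broad peaks (all other libraries 25722 to 58918) and held 36.6% of its counts in the peaks found in every library (47.3% and 48.1% in its replicates), so the C/D results at TP2 are given with and without it. Among promoter peaks of the members, 47 of 54 were tested, at least 1 for each of the 35 genes, and 33 of the 47 had a broad peak in all 125 libraries. Of the 688 intragenic peaks, 136 were tested in the A/B fit and 153 in the C/D fit, while 495 had a broad peak in no more than 12 libraries. The B lineage markers Cd79a, Cd79b, Pax5 and Ebf1 all had an accessible promoter, with a broad peak in 124 or 125 libraries. Levels are given in CPM, counts scaled to a common library size with TMM factors. Of 13 NK cell marker genes 9 had a tested promoter peak, with a broad peak in 16 (Gzmb) to 123 (Eomes) of the 125 libraries. Tbx21 had one in 114, Klrd1 in 106 and Il2rb in 101. Ncr1, Klrk1 and Ifng had no promoter peak at all and Gzma had broad peaks in 2 libraries. Of 9 T cell markers 3 were tested, Cd28 (broad peak in 125 libraries), Cd5 (123) and Cd247 (29), with no promoter peak at Cd3e. Of 10 myeloid markers 6 were tested, with a broad peak in 23 (Csf3r) to 122 (Cebpa and Cebpe) libraries. The summed medians of the tested markers in A/B alone, at TP1 and at TP2 were 38.7, 34.1 and 37.9 CPM for T cells and 59.7, 59.0 and 62.8 CPM for myeloid cells.

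In lines A and B, the promoters of B lineage genes lost accessibility after co-culture with NK cells at TP1, broadly but by a small amount. Of the 47 promoter peaks, 35 fell and 0 rose (adjusted p at or under 0.05 after Benjamini-Hochberg correction, edgeR quasi-likelihood F-test; 36 and 0 at an unadjusted p under 0.05, and 34 and 0 by DESeq2 at the adjusted p), while 28.6% of all tested promoter peaks fell and 12.0% rose. The median log2 fold change of the 47 was -0.25, against -0.05 over all 17302 tested promoter peaks, and 44 of the 47 were negative. At the threshold of the study, which also asks for a 1.49-fold change, 2 of the 47 were called lower and 0 higher, where 0.601% and 2.43% of all promoter peaks were called. These 2 were Ikzf3 +2.9 kb and Dntt -2.4 kb. At Dntt -2.4 kb, 3 A/B groups alone, 2 at TP2 and 0 at TP1 had a broad peak in every library. It thus entered the A/B fit through arms other than TP1, which favours a fall at TP1. For Ikzf3 +2.9 kb these were 3, 3 and 1 groups. In bulk samples a site that is open in fewer cells and a site that is less open in each cell cannot be told apart.

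Of the 16 transcription factor genes, 12 fell at their leading promoter peak. At the promoter of Pax5, which maintains B cell commitment (chr4:44709054-44712344), the 18 samples of A/B alone ranged from 41.4 to 89.8 CPM (median 66.1) and the 18 with NK cells at TP1 from 36.2 to 60.5 CPM (median 48.7). The ranges overlapped, with 7 of 18 co-culture samples below the lowest sample alone, and the peak was lower in each of the 6 line-by-experiment combinations (log2 fold change -0.51 ± 0.064 SE, adjusted p = 1.02e-09 by edgeR). Spib, a paralogue of PU.1, changed most among the leading peaks. It went from a median of 22.0 CPM (11.1 to 29.2) alone to 14.0 CPM (8.77 to 20.7) at TP1, again lower in 6 of 6 combinations (-0.57 ± 0.076 SE, adjusted p = 6.29e-09). Aiolos (Ikzf3 -0.4 kb) fell by 0.44 on the log2 scale, the octamer factor Pou2f2 by 0.37, its coactivator Pou2af1 by 0.31, Ebf1 by 0.26 and Irf4 by 0.24. Smaller falls of 0.13 to 0.20 were found at Spi1, which encodes PU.1, and at Runx1, Bach2, Ets1 and Foxo1. The 4 leading peaks that did not pass were Tcf3 (-0.14, adjusted p = 0.119), Lef1 (-0.07), Mef2c (-0.05) and Ikzf1 (-0.01). Ikzf1, a relative of Ikzf3, had medians of 34.8 CPM alone and 36.0 CPM at TP1.

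All 5 genes grouped as pre-BCR subunits fell (median -0.34), with Vpreb3 among them, which is not part of the receptor as described above. Cd79a, which encodes the signalling chain Ig-alpha, ranged from 76.1 to 178 CPM alone (median 123) and from 61.5 to 120 CPM at TP1 (median 104). Its partner Cd79b ranged from 30.6 to 49.1 CPM alone (median 39.4) and from 21.5 to 40.2 CPM at TP1 (median 28.5). Both fell by 0.44 on the log2 scale (SE 0.069 and 0.058), a loss of 26.3% each, in 6 of 6 combinations, and 11 of the 18 co-culture samples lay below the lowest sample alone at Cd79b. The surrogate light chain gene Igll1 fell by 0.34 (SE 0.082, adjusted p = 0.000492), Vpreb3 by 0.24 and Vpreb1 by 0.13 (adjusted p = 0.0452, all by edgeR), the last in 5 of 6 combinations. Of the 5 signalling genes, Bank1, Blnk and Syk each fell by 0.28 and Blk by 0.18, while the Btk promoter gave -0.01 (adjusted p = 0.881).

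Among the genes of recombination, Dntt fell by 0.34 (SE 0.077) and Rag2 by 0.21 (adjusted p = 0.0455), and Rag1 gave 0.15 (adjusted p = 0.147), higher in 6 of 6 combinations. Dntt -2.4 kb, the other promoter peak of the gene, had a median of 13.5 CPM alone (6.37 to 24.1) and 9.34 CPM at TP1 (6.24 to 12.0), a log2 fold change of -0.67 ± 0.107 SE. Of the 6 surface receptors, 4 fell. They were Cd22 (-0.47), an inhibitory co-receptor of the B cell receptor, Cd72 (-0.33), the heat-stable antigen gene Cd24a (-0.29) and the tetraspanin gene Cd37 (-0.25). Cd38 (-0.16, adjusted p = 0.0571) and the interleukin-7 receptor gene Il7r (0.06, adjusted p = 0.491) did not pass.

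**Figure D1:**
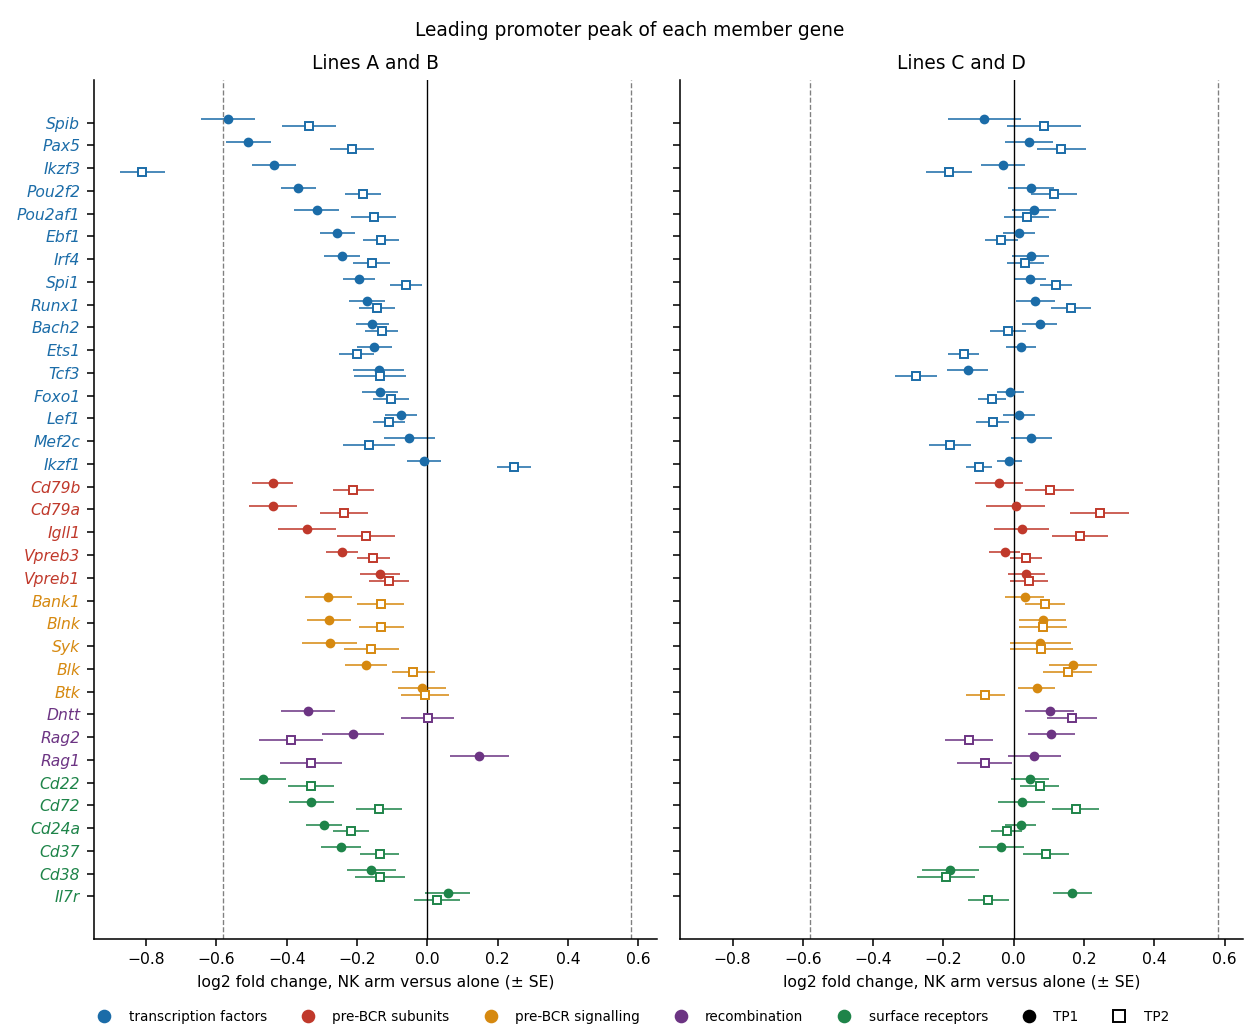
Log2 fold change (± SE) of the leading promoter peak of each of the 35 genes, NK arm against alone, in lines A and B (left) and C and D (right), with filled circles for TP1, open squares for TP2, colours for the role of the gene and dashed lines at the fold threshold of 0.58. In A/B most circles lie left of 0 and the squares of 28 genes closer to 0 than the circles, with Ikzf3 at TP2 past the threshold, while in C/D the points lie on both sides of 0.

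The fall in A/B at TP1 was seen in each experiment, in differing numbers. At the adjusted p, 34 of 47 promoter peaks were lower in experiment 9.5, 17 of 44 in 9.6 and 12 of 47 in 9.7, and 0 were higher, while 14.5%, 16.6% and 10.5% of all promoter peaks were lower. Fitted by line, 30 were lower in A and 22 in B, against 18.8% and 10.6% of all promoter peaks. The size depended on how the libraries were scaled: with an offset that follows mean abundance (loess) in place of TMM, 24 fell and 2 rose (Lef1 +0.9 kb and Runx1 +1.0 kb) and the median was -0.11, while 16.2% of all promoter peaks fell and 20.8% rose. The share of counts in the 16254 peaks found in every library moved with the arm, with medians of 58.1% in A/B alone, 55.4% at TP1 and 54.1% at TP2. In 9.5 it went from 59.7% alone to 54.2% at TP1, in 9.6 from 56.1% to 54.9% and in 9.7 from 58.5% to 58.6%. The median changes of the tested member promoter peaks within these experiments were -0.25, -0.19 and -0.14. The summed level of the 9 tested NK cell marker promoters had medians of 69.7 CPM alone (55.3 to 80.1), 78.8 CPM at TP1 (59.4 to 90.8) and 72.1 CPM at TP2 (49.4 to 81.9), and of the 8 tested in the A/B fit 3 rose at TP1 (Klre1, 0.51, Nkg7, 0.42, and Prf1, 0.39) and 0 fell. The other NK cell markers gave 0.24 (Il2rb), 0.22 (Klrd1), -0.01 (Eomes), -0.08 (Klrb1c) and -0.13 (Tbx21). The part of either in the result was not tested.

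**Figure D2:**
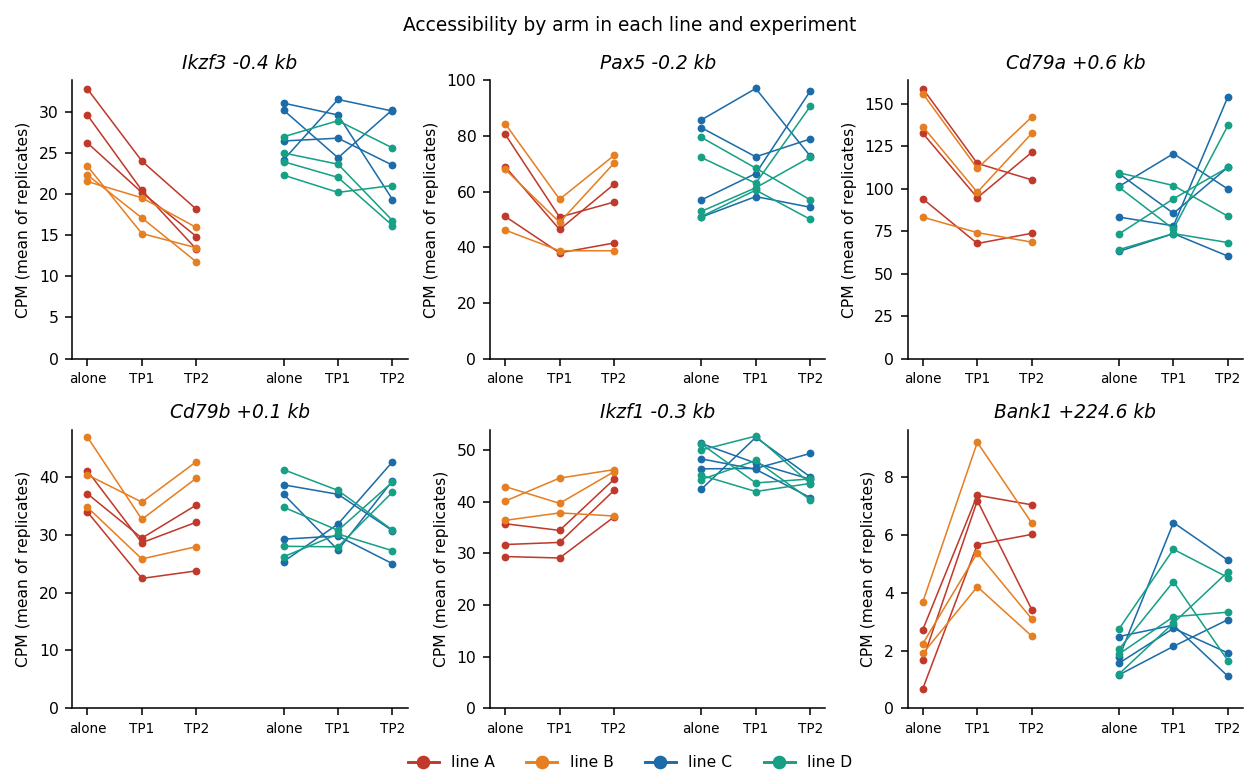
Accessibility (CPM, mean of the replicates of a group) at 6 peaks in each combination of line and experiment, with lines joining the alone, TP1 and TP2 values, A and B on the left of each panel and C and D on the right. In most A/B combinations Ikzf3 -0.4 kb goes down at TP1 and again at TP2, Pax5, Cd79a and Cd79b go down at TP1 and partly back up at TP2, and Ikzf1 goes up at TP2, while Bank1 +224.6 kb goes up at TP1 in every combination of both pairs.

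In the fit over all experiments, 28 of the 35 leading peaks in A/B had a change closer to 0 at TP2 than at TP1. Ikzf3 was among those that had not. The share of all promoter peaks that moved in this way was not computed. At the adjusted p, 20 of 47 promoter peaks were lower and 1 higher (background 21.2% lower, 6.66% higher), with a median of -0.14. The peaks called at the fold threshold were both of Ikzf3, where 1.02% of promoter peaks were called lower and 1.91% higher. The TP1 and TP2 comparisons share the cells alone as controls. From TP1 to TP2, 14 of 47 promoter peaks rose and 2 fell, while 7.18% of all promoter peaks rose and 9.92% fell. By experiment, 5 rose and 0 fell in 9.5 (all promoters 1.86% and 2.23%), 1 of 44 rose and 6 fell in 9.6 (12.3% and 12.9%), and 6 rose and 2 fell in 9.7 (2.36% and 2.88%), so that in 9.6 more fell than rose. Without 9.7, 5 of 47 rose and 2 fell (4.52% and 9.05%), with a median of 0.04. Fitted by line, 1 rose and 2 fell in A (1.15% and 2.26%), and 3 rose and 2 fell in B (2.69% and 6.6%). In the pooled fit Pax5 rose by 0.30 (adjusted p = 0.000734), Dntt +1.8 kb by 0.34, Cd79b by 0.23 and Cd79a by 0.20. Of the intragenic peaks 30 rose, 5 fell and 0 were called by edgeR (47 and 8 at an unadjusted p under 0.05), while 10.8% of peaks away from promoters rose, 9.16% fell, 0.145% were called higher and 1.87% lower. None of the 47 promoter peaks was called in this step by edgeR or DESeq2 (0.0694% of promoter peaks called higher, 0.757% lower), and at an unadjusted p under 0.05, 22 were higher and 2 lower. Against cells alone, Pax5 stood at -0.21 (SE 0.064, adjusted p = 0.00712), Cd79a at -0.24 and Cd79b at -0.21. The count depended on experiment 9.7, which had the later days: without it 36 of 47 fell at TP2 (27.9% of all promoter peaks), and within it 2 fell and 2 rose, close to the shares over all promoter peaks there (6.17% and 3.91%). It was also lower, at 9, with the loess offset (9.84% of all promoter peaks).

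Rag1, Rag2 and Ikaros took a different course. Rag1 was 15.9 CPM alone (11.1 to 21.3), 18 CPM at TP1 (11.4 to 23.5) and 12.5 CPM at TP2 (8.37 to 19.8), as medians and ranges over 18 samples. It fell from TP1 to TP2 (-0.48 ± 0.085 SE, adjusted p = 4.95e-05) and stood lower than alone at TP2 (-0.33 ± 0.088 SE, adjusted p = 0.00252) in 5 of 6 combinations. Rag2 stood at -0.39 ± 0.091 SE at TP2 in 6 of 6 combinations. The Ikzf1 promoter was the only promoter peak of the 35 genes that rose at TP2, from a median of 34.8 CPM (25.5 to 44.6) alone to 43.3 CPM (33.3 to 51.0). This rise of 0.25 on the log2 scale (SE 0.048, adjusted p = 4.63e-05 by edgeR) was seen in 6 of 6 combinations.

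The gene with the largest and most lasting loss in A/B was Ikzf3. Its leading promoter peak (chr11:98545401-98547047) had 25.1 CPM alone (median of 18 samples, 18.1 to 36.4), 20.1 CPM at TP1 (13.9 to 26.6) and 15 CPM at TP2 (10.0 to 19.3). At TP2, 16 of 18 samples lay below the lowest sample alone, and the log2 fold change was -0.81 ± 0.064 SE (adjusted p = 1.57e-16), with -0.73, -0.95 and -0.67 within experiments 9.5, 9.6 and 9.7. The further fall from TP1 to TP2 was -0.38 ± 0.064 SE (adjusted p = 2.54e-05). Ikzf3 +2.9 kb (chr11:98542501-98543264), the intronic peak shown above, had 9.63 CPM alone (5.35 to 16.4), 5.64 CPM at TP1 (3.66 to 7.38) and 5.90 CPM at TP2 (3.27 to 8.36).

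All 7 tested peaks of Ikzf3 in A/B were lower at both times at the adjusted p. Beside the promoter peaks, Ikzf3 +30.0 kb gave -0.74 at TP1 and -0.78 at TP2, Ikzf3 +47.9 kb -0.71 and -0.76, and Ikzf3 +52.8 kb -0.61 and -0.68, all called, while Ikzf3 +12.0 kb (-0.27 and -0.26) and Ikzf3 +60.9 kb (-0.32 and -0.32) were under the fold threshold. In C/D, 8 peaks of the gene were tested, with log2 fold changes from -0.21 to 0.14 at TP1, none past the adjusted p. At TP2 the C/D promoter peak was lower (-0.18 ± 0.065 SE, adjusted p = 0.0222), whereas Ikzf3 +47.9 kb (0.31) and Ikzf3 +52.8 kb (0.23) rose (adjusted p = 0.017 and 0.0394).

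**Figure D3:**
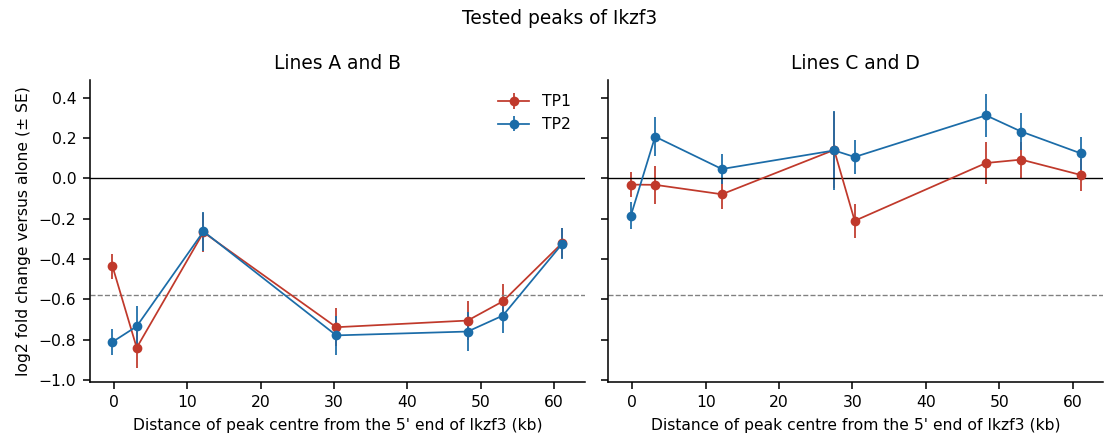
Log2 fold change (± SE) of each tested Ikzf3 peak against the distance of its centre from the 5' end of the gene (kb), in lines A and B (left) and C and D (right), at TP1 (red) and TP2 (blue), with the fold threshold dashed. All 7 peaks in A/B lie below 0 at both times, with the promoter lower at TP2 than at TP1, while the 8 peaks in C/D lie between -0.21 and 0.31.

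In lines C and D the same promoters changed little over all experiments. At TP1, 0 of 47 promoter peaks were called by edgeR (background 0.740% higher, 0.0639% lower), and at the adjusted p alone 2 rose (Il7r, 0.17, and Runx1 +1.0 kb, 0.14) and 1 fell (Tcf3 -2.4 kb, -0.19), where 5.20% and 5.75% of all promoter peaks rose and fell. DESeq2 also called 0, with 2 higher and 1 lower at the adjusted p, and at an unadjusted p under 0.05 edgeR gave 4 higher and 3 lower. Pax5 had medians of 66.7 CPM alone (46.8 to 93.2), 69.6 CPM at TP1 (48.9 to 99.7) and 72.7 CPM at TP2 (45.8 to 101). Its change at TP1 was 0.04 ± 0.067 SE and 0.14 ± 0.068 SE at TP2. At TP2, 0 were called by edgeR or DESeq2 (background 0.794% higher, 0.687% lower). At an unadjusted p under 0.05, 15 were higher and 7 lower, and 9 rose and 5 fell at the adjusted p, against 11.4% and 27.2% of all promoter peaks. Cd79a was among those that rose (0.24 ± 0.085 SE, adjusted p = 0.0198), together with Tcf3 +0.9 kb (0.31), Vpreb3 -2.9 kb (0.31), Pou2f2 +2.5 kb (0.26), Dntt -2.4 kb (0.25), Spib -2.3 kb (0.24), Cd72 (0.18), Runx1 (0.16) and Spi1 (0.12). Those that fell were Tcf3 -0.1 kb (-0.28), the leading peaks of Ikzf3 and Mef2c (-0.18 each), Ets1 (-0.14) and Ikzf1 (-0.10). Vpreb3 -2.9 kb also lies near the predicted gene Gm867, so that its change need not belong to Vpreb3.

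The C/D result at TP2 differed between experiments. Within experiment 9.7, 30 of 47 promoter peaks rose and 4 fell (median 0.25), while over all promoter peaks 17.6% rose and 39.4% fell (median -0.14). Cd79a and Igll1 rose by 0.63 each, Dntt -2.4 kb by 0.60 and Pax5 by 0.51, whereas Cd38 fell by 0.65. Within 9.5, including 9.5.1, 1 rose and 4 fell (median -0.11, all promoters 5.81% and 4.6%), and within 9.6, including 9.6.1, 3 of 44 rose and 0 fell (2.63% and 3.76%), counts near the shares over all promoter peaks. Without experiment 9.7 the C/D counts were 1 higher and 7 lower (7.99% and 15.8%). Without the library of line D that stood apart, 6 rose and 7 fell at TP2 (9.42% and 28.6%). The share of counts in peaks found in every library also differed, rising from 53.4% alone to 59.7% at TP2 in experiment 9.7 (medians), and going from 56.6% to 51.9% in 9.5 and from 50.7% to 48.1% in 9.6. The summed level of the 3 tested T cell markers in C/D had medians of 27.9 CPM alone (24.1 to 47.8), 30.6 CPM at TP1 (23.9 to 42.7) and 37.4 CPM at TP2 (26.9 to 52.6). For myeloid markers the medians were 73.0, 68.4 and 69.2 CPM, and for NK cell markers 68.2, 69.4 and 67.5 CPM, with the highest value of 112 CPM in the library of line D that stood apart. Their part in the result was not tested.

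The effect of NK cells on the members was tested directly for a difference between the pairs of lines. At TP1, 30 of 47 promoter peaks had a lower effect in A/B than in C/D and 0 a higher one at the adjusted p, against 11.9% lower and 3.87% higher over all promoter peaks. Within experiments, 19 were lower in 9.5, 15 of 46 in 9.6 and 0 of 47 in 9.7, with medians of -0.31, -0.31 and -0.16, against 5.07%, 4.35% and 0.0055% of all promoter peaks. In 9.7 almost no promoter peak passed this test in that direction. The difference was -0.55 ± 0.097 SE for Pax5 (adjusted p = 4.9e-05), -0.51 for Cd22, -0.44 for Cd79a, -0.39 for Cd79b and -0.26 for Ebf1. It did not pass for Vpreb1 (-0.16), Il7r, Rag1, Cd38 or Ikzf1. The peaks called at the fold threshold were Ikzf3 +2.9 kb (-0.80) and Dntt -2.4 kb (-0.69), where 0.341% of promoter peaks were called lower and 1.44% higher. At TP2, 21 were lower and 1 higher (background 10.4% and 5.31%). The higher one was the Ikzf1 promoter (0.34 ± 0.059 SE, adjusted p = 6.53e-06), and those called were Ikzf3 +2.9 kb (-0.94), Ikzf3 -0.4 kb (-0.63) and Dntt -2.4 kb (-0.58), where 1.06% were called lower and 1.39% higher. With the loess offset 16 were lower at TP1 and 16 at TP2 (4.45% and 7.11% of all promoter peaks), and without experiment 9.7, 9 were lower at TP2 (4.63%). Within experiments at TP2, 1 was lower in 9.5, 8 of 46 in 9.6 and 19 of 47 in 9.7, against 0.467%, 3.12% and 9.99% of all promoter peaks. Without the library of line D that stood apart, 32 were lower at TP1 and 23 at TP2 (14.3% and 10.8% of all promoter peaks).

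Intragenic peaks did not follow the promoters as a block. In A/B at TP1, 46 of 136 fell and 16 rose at the adjusted p, while 22.7% of all tested peaks away from promoters fell and 23.1% rose. At the fold threshold 9 were called higher and 4 lower, where 9.15% and 1.40% of the peaks away from promoters were called. The largest rise was in Bank1, which encodes a B cell scaffold protein of receptor signalling, at Bank1 +224.6 kb (chr3:136100274-136102546). Its level was low, with 2.09 CPM alone (0.477 to 4.66, median and range of 18 A/B samples), 5.73 CPM at TP1 (3.79 to 12.1) and 4.28 CPM at TP2 (1.60 to 8.08), and 13 of 18 samples at TP1 lay above the highest sample alone. The log2 fold change was 1.59 ± 0.153 SE at TP1 (adjusted p = 2.16e-13) and 1.12 ± 0.162 SE at TP2, higher in 6 of 6 combinations each time. The promoter of the same gene fell at TP1 (-0.28). C/D gave 0.98 ± 0.161 SE at TP1 (adjusted p = 2.95e-06, 8 of 8 combinations) and 0.67 ± 0.171 SE at TP2 (6 of 8), and this was the only member peak called higher in both pairs. The peak was covered by a broad peak in 45 libraries, among them 2 of 18 in A/B alone, 15 of 18 at TP1 and 10 of 18 at TP2. No group of cells alone had one in every library, so the peak was tested through co-culture groups. Where a broad peak in every library was required it was not tested, and 0 member intragenic peaks were called in A/B at TP1. The nearest TSS, of the predicted gene Gm5281, lies 49722 bases away.

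Other intragenic peaks called higher in A/B at TP1 were Bank1 +238.8 kb (1.0) and Bank1 +219.2 kb (0.81), Mef2c -21.2 kb (0.82), Ebf1 +243.5 kb (0.79) and Ebf1 +159.4 kb (0.58), Ikzf1 +39.5 kb (0.79), Pax5 +85.8 kb (0.77) and Bach2 -26.0 kb (0.70), each higher in 6 of 6 combinations. Except at Ebf1 +159.4 kb, no A/B group of cells alone had a broad peak at these sites in every library. All but that peak thus entered the A/B fit, for both times, through co-culture groups, which favours a rise. The 4 called lower were Ikzf3 +30.0, +47.9 and +52.8 kb and Lef1 +63.6 kb (-0.66). Pax5 and Ebf1 thus held intragenic peaks that went against their promoters, at sites with few broad peaks in cells alone. Of the 18 A/B libraries alone, 0 had one at Pax5 +85.8 kb, 1 at Ebf1 +243.5 kb and 5 at Ebf1 +159.4 kb. Of 7 tested intragenic peaks of Pax5, 5 fell and 1 rose, and of 19 of Ebf1, 4 fell and 3 rose, while 2 of 8 in Ikzf1 and 4 of 8 in Bank1 rose with none lower. At TP2, 6 were called higher (3 of Bank1, 2 of Ebf1 and Bach2 -26.0 kb) and 3 lower (all Ikzf3), where 6.72% and 1.58% of peaks away from promoters were called, and 21 rose and 21 fell at the adjusted p, against 19.3% and 13.1%.

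In C/D, intragenic peaks at TP1 gave 1 call, the Bank1 peak (2.21% of peaks away from promoters called higher, 0.128% lower), and 14 rose and 3 fell at the adjusted p, against 11.4% and 4.67%. At TP2, 47 of 153 rose and 8 fell at the adjusted p (39 and 7 without the library that stood apart), against 22.0% and 10.2%, with 12 of the 25 tested Ebf1 peaks among those that rose. Called at TP2 were the Bank1 peak and Mef2c +21.8 kb (-0.66 ± 0.139 SE, lower in 8 of 8 combinations), where 2.30% of peaks away from promoters were called higher and 1.09% lower. From TP1 to TP2 the 3 calls were all lower and all in Mef2c, at -21.2 kb (-0.77), +15.1 kb (-0.67) and +21.8 kb (-0.60), each lower in 7 of 8 combinations and still called without the library of line D that stood apart (0.523% of peaks away from promoters called lower, 0.273% higher). At the promoters 7 rose and 7 fell in that step, against 10.4% and 21.5% (4 and 7 without that library, against 6.39% and 20.1%), and 0 were called by edgeR or DESeq2, against 0.133% higher and 0.170% lower (10 higher and 9 lower at an unadjusted p under 0.05). Without experiment 9.7 none of the 3 was called, and 1 other intragenic peak was called higher. At Mef2c -21.2 kb, 6 C/D groups at TP1, 1 at TP2 and 0 alone had a broad peak in every library. For +15.1 kb these were 4, 0 and 2 groups, and for +21.8 kb 0, 0 and 1. The Mef2c peaks thus entered the fit mainly through arms other than TP2, which favours a fall at TP2. The difference between the pairs was called at 3 intragenic peaks in each direction at TP1 (background 4.28% higher, 0.604% lower) and 4 in each at TP2 (3.81% and 1.83%). Among these, Pax5 +85.8 kb and Bank1 +238.8 kb (TP1) and Foxo1 +79.9 kb (TP2) were tested through co-culture groups of 1 pair only, which favours the difference called.

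**Figure D4:**
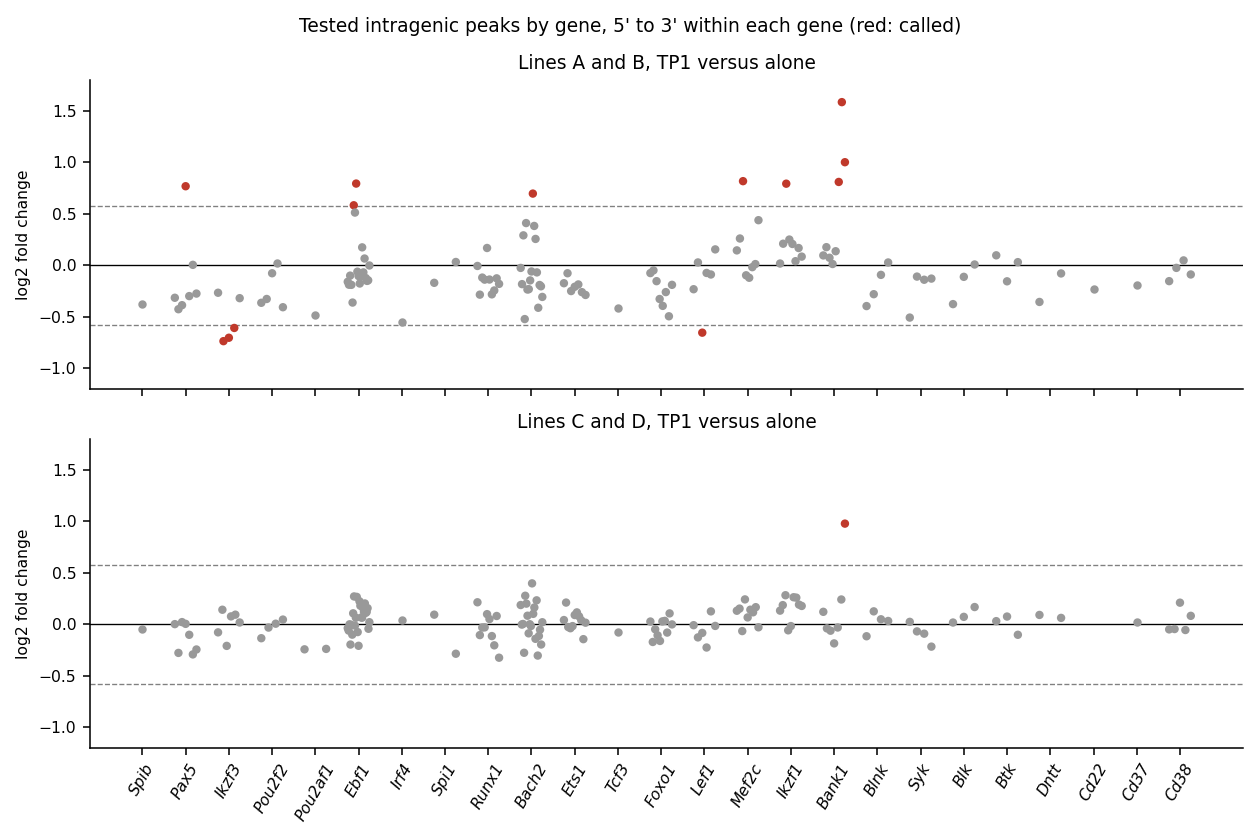
Log2 fold change at TP1 against alone of every tested intragenic peak, by gene and from 5' to 3' within a gene, in lines A and B (top, 136 peaks) and C and D (bottom, 153 peaks), with called peaks in red and the fold threshold dashed. The called peaks in A/B are 3 of Ikzf3 and 1 of Lef1 below the line and 9 in 6 genes above it, and the single called peak in C/D is Bank1 +224.6 kb.

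The pairs of lines also differed at these genes in culture without NK cells, compared over experiments 9.5, 9.6 and 9.7. Of 47 promoter peaks, 33 were higher and 4 lower in A/B than in C/D at the adjusted p, where 32.0% and 22.0% of all promoter peaks were. Called at the fold threshold were 3 higher and 0 lower, against 2.76% and 7.93%. The largest difference was at Cd38, an ectoenzyme and surface marker of B cell stages, with a median of 22.3 CPM in the 18 samples of A/B alone (16.8 to 32.3) and 6.93 CPM in the 22 of C/D alone over all experiments (5.08 to 9.90). The ranges did not overlap, and the log2 fold change was 1.62 ± 0.077 SE (adjusted p = 1.14e-25 by edgeR), a 3.08-fold higher level in A/B. The Cd38 peak had a broad peak in 18 of 18 A/B libraries alone and 9 of 23 of C/D. Every library had one in 6 of 6 A/B groups alone and 1 of 8 C/D groups, so the peak was tested mainly through A/B, which favours a higher level there. Dntt -2.4 kb (0.79) and Ikzf3 +2.9 kb (0.64), the promoter peaks that fell most with NK cells in A/B at TP1, were among those higher in A/B alone. The same A/B libraries alone enter both comparisons, so the fall and the higher start are not independent. Cd79a (0.51) and Igll1 (0.46) were also higher, while Pax5 (-0.02, adjusted p = 0.762) and Spib (0.07, adjusted p = 0.355) did not differ at the adjusted p. Lower in A/B were Rag1 (-0.50), Ikzf1 (-0.45), Rag2 (-0.44) and Blk (-0.33). With the loess offset 21 of 47 were higher and 8 lower, while 19.4% of all promoter peaks were higher and 26.2% lower. Within experiments 9.5, 9.6 and 9.7, 28 of 47, 24 of 44 and 21 of 46 were higher (20.8%, 22.9% and 12.4% of all promoter peaks) and 5, 4 and 2 lower (20.6%, 16.1% and 12.3%). Only 1 parental line stands behind each pair, so these are differences between these lines.

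Per kb of peak, the leading promoters with the highest levels in cells alone were those of Igll1 (58.7 CPM per kb in A/B, 41.7 in C/D, means over combinations) and Spib (46.5 and 42.5 CPM per kb), with Igll1 first in A/B and Spib in C/D. Cd79a stood at 35.9 and 24.9, Ebf1 at 24.3 and 19.8, Pax5 at 20.2 in both, Rag2 at 8.92 and 11.7 and Rag1 at 5.07 and 7.13 CPM per kb. Among intragenic peaks, 4 were called higher in A/B alone, led by Ets1 +30.4 kb (1.28) and Ets1 +9.6 kb (0.80), and 9 lower, led by Blk +27.8 kb (-1.32), Ets1 -23.5 kb (-1.10) and Bank1 +81.1 kb (-1.10), where 4.43% of peaks away from promoters were called higher and 13.8% lower. Different peaks of the same gene, Ets1, were thus higher in opposite pairs. Ets1 -23.5 kb had a broad peak in 0 of 18 A/B libraries alone and 15 of 23 of C/D. At Bank1 +81.1 kb these were 5 of 18 and 20 of 23, with 0 A/B groups alone having one in every library. Both peaks were therefore tested through C/D groups, which favours a lower level in A/B.

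**Figure D5:**
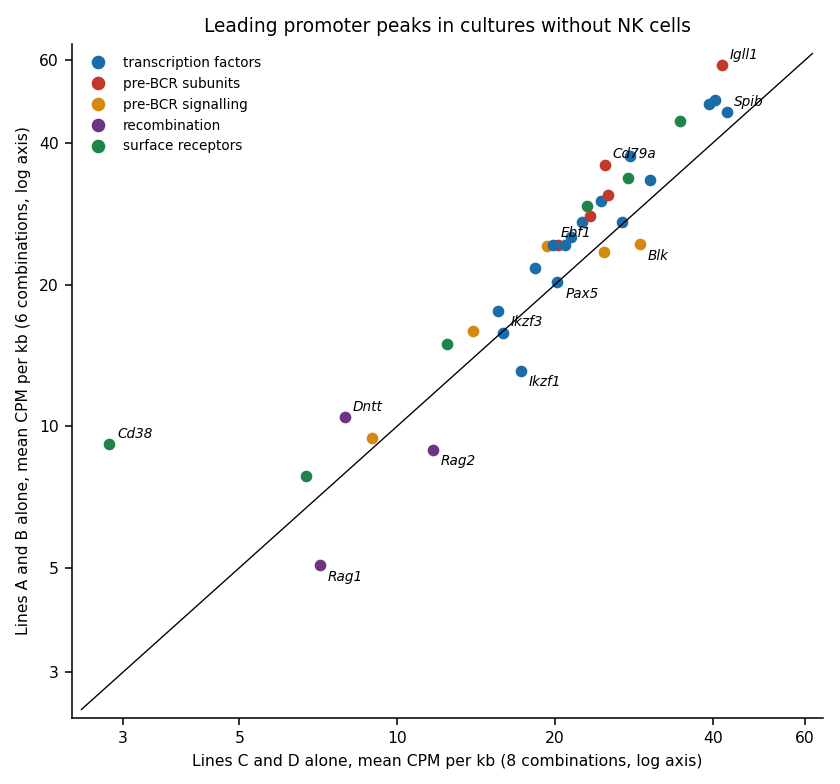
Mean level (CPM per kb of peak, log axes) of each leading promoter peak in cells cultured alone, lines A and B (vertical, 6 combinations) against lines C and D (horizontal, 8 combinations), with the line of equal levels. Most genes lie on or just above the line, Cd38 lies far above it (9.16 against 2.82 CPM per kb), and Rag1, Rag2, Ikzf1 and Blk lie below it.

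A wider list of 43 B lineage genes, of which 40 had a tested leading promoter peak, showed a smaller median change. In A/B at TP1, 20 of 40 fell and 3 rose at the adjusted p (median -0.13), against 28.6% and 12.0% of all promoter peaks. Among those that fell were the inhibitor of E proteins Id3 (-0.44), the signalling adaptor Pik3ap1 (-0.39) and the chemokine receptor gene Cxcr4 (-0.35). At TP2, 17 fell and 2 rose (21.2% and 6.66% of all promoter peaks), with Ms4a1, which encodes CD20, higher by 0.43. In C/D, 4 rose and 2 fell at TP1 (5.20% and 5.75%), and 8 rose and 7 fell at TP2 (11.4% and 27.2% of all promoter peaks), with Ms4a1 again higher (0.45). By edgeR, 0 of the 40 passed the fold threshold in these 4 comparisons.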

How the data were processed

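The libraries were ATAC-seq of sorted GFP+ B-ALL cells. The authors aligned reads to GRCm38 with STAR (version not given in the sources used here), marked duplicates with Picard 2.27.4 and called broad peaks per library with MACS2 2.2.7.1. They merged the peaks into consensus peaks and deposited raw read counts per consensus peak, a read being counted where at least 0.2 of it overlapped the peak. They also deposited a broad peak list per library, with −log10 q-values (lowest deposited value 1). No depth other than the counts in peaks was used, and intervals were not computed from single libraries.

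Counts were modelled with edgeR 4.0.16 in R 4.3.3 (TMM factors, quasi-likelihood F-test, additive terms for line and experiment), separately for A/B and C/D, jointly for the difference between pairs, and for the cells alone in experiments 9.5, 9.6 and 9.7. P-values were adjusted by Benjamini-Hochberg over all tested peaks. Called means adjusted p of 0.05 or less and a log2 fold change of at least 0.58. SE is the absolute log2 fold change divided by the square root of F. The study describes its co-cultures as run in biological replicates, and all replicates of a group are of 1 line. Each comparison had 1 common effect, so the residual spread joins differences between replicates with differences in effect between lines and experiments. The p-values treat libraries as independent units and do not measure the spread between parental lines. The script was tested on simulated data.

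Named with values were each called leading promoter peak, up to 20 leading peaks of smallest adjusted p, up to 10 called intragenic peaks of largest change with 1 sign in every combination, and Pax5, Ebf1, Ikzf1, Ikzf3, Spib, Cd79a, Cd79b, Blnk, Vpreb1, Igll1, Rag1, Rag2, Dntt and Il7r, beside up to 6 genes of the wider list. Other promoter peaks were named after their values were seen. Members and lists were chosen with earlier results of these data known. Promoter sequences came from RefSeq tables of GRCm38.p6 and peak sequences from GRCm38 by coordinates. Alternatives were DESeq2 1.42.0, its size factors in edgeR, a loess offset, no filter, other peak detection rules, promoter peaks only, near-identical libraries kept apart, a replicate block, each replicate left out and, chosen after seeing the data, experiment 9.7 or 1 library of line D left out.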

Additional observations from a re-analysis of the deposited data

Results flagged for a closer look

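In lines A and B at TP1, the change at the Cd79a promoter in line B of experiment 9.6 (-0.17) lay far above those of the other combinations (median -0.475), and at TP2 the change at Il7r in line B of experiment 9.7 (0.29) lay above the others (median -0.01). These were 2 of 56 such checks, and chance marks about 1 in 20.

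The effect of NK cells differed between A/B and C/D by the interaction test at the fold threshold in these peaks at TP1: the difference in log2 fold change was -0.80 at Ikzf3 +2.9 kb, -0.77 at Ikzf3 +47.9 kb, -0.70 at Ikzf3 +52.8 kb, -0.69 at Dntt -2.4 kb, -0.59 at Irf4 +11.7 kb, 0.58 at Mef2c -21.2 kb, 0.77 at Bank1 +238.8 kb and 0.79 at Pax5 +85.8 kb. At TP2 it was -1.07 at Ikzf3 +47.9 kb, -0.94 at Ikzf3 +2.9 kb, -0.91 at Ikzf3 +52.8 kb, -0.88 at Ikzf3 +30.0 kb, -0.72 at Foxo1 +79.9 kb, -0.63 at Ikzf3 -0.4 kb and -0.58 at Dntt -2.4 kb. In the other direction it was 0.60 at Ebf1 +24.4 kb, 0.64 at Mef2c +15.1 kb, 0.80 at Bank1 +219.2 kb and 0.82 at Mef2c -21.2 kb. Foxo1 +79.9 kb was tested only through C/D co-culture groups, which favours a lower difference. Pax5 +85.8 kb and Bank1 +238.8 kb were tested only through A/B co-culture groups, which favours a higher one. At Dntt -2.4 kb no A/B group at TP1 had a broad peak in every library, which favours a lower difference at TP1.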

How the results depend on the processing

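Of 634 recomputed values for 54 named peaks, 574 kept direction and call, 60 kept direction and lost the call and 0 reversed. Of 253 recomputed counts 191 stayed within 1.5 times. The cause of the moves below was not tested, except that stricter detection tests fewer peaks. The member counts below join higher and lower calls, and calls over all tested peaks moved with the setting too. For the difference at TP1 these were 1971 higher and 305 lower of 58886 in the main fit, and 911 and 2090 of 256400 with no filter. For A/B TP1 they were 3321 and 549 of 48997, and 283 and 50 of 18281 with a broad peak in every library. The member counts are therefore not read as results about the members. Called promoter peaks, leaving out 1 replicate each, ranged 1 to 4 (A/B TP1), 2 to 2 (A/B TP2), 1 to 5 (difference TP1), 1 to 3 (difference TP2) and 3 to 6 (alone). Intragenic ranges in the same order were 13 to 17, 11 to 11, 0 to 15, 5 to 13 and 13 to 16, then 0 to 3 (A/B TP2 against TP1), 1 to 3 (C/D TP1), 4 to 4 (C/D TP2) and 3 to 6 (C/D TP2 against TP1). With no filter, promoter counts were 12 (difference TP1), 5 (difference TP2) and 9 (alone), and intragenic counts 24 (A/B TP1), 21 (A/B TP2), 1 (A/B TP2 against TP1), 12 (difference TP1), 13 (difference TP2), 29 (alone), 6 (C/D TP1), 7 (C/D TP2) and 16 (C/D TP2 against TP1). With a broad peak in every library, promoter counts were 0 for A/B and for the difference at both times and 1 (alone), and intragenic counts 0 (A/B TP1), 2 (A/B TP2), 1 (difference at each time), 3 (alone), and 0 in each C/D comparison. With a broad peak required over most of the consensus peak, promoter counts were 1 (A/B TP1), 1 (A/B TP2) and 0 (alone), and intragenic counts 2 (A/B TP1), 4 (A/B TP2), 3 (difference TP1), 2 (difference TP2), 5 (alone) and 0 in each C/D comparison. At q of 0.01 or less, C/D intragenic counts were 0 at both times. With the loess offset 1 promoter peak was called for the difference at TP2 and 1 intragenic peak for A/B TP2 against TP1. Without experiment 9.7, intragenic counts were 11 (difference TP1), 2 (C/D TP1) and 1 (C/D TP2 against TP1). Without the library of line D that stood apart, no count moved by over 1.5 times, and the difference at TP1 at Mef2c -21.2 kb (0.57) was no longer called. Over all tested peaks, the share of calls that were higher was 85.8% with TMM and 75.1% with loess in A/B TP1, 78.4% and 67.6% in A/B TP2, 7.41% and 23.7% in A/B TP2 against TP1, 86.6% and 70.6% for the difference at TP1, 65.6% and 48.3% at TP2, and 24.7% and 39.7% for A/B against C/D alone. Replicate numbers did not pair the samples (median correlation 0.024 over 112 same-number pairs, 26 over 0.1, and -0.0095 over 224 others). With a replicate block, A/B gave 2 promoter and 13 intragenic calls at TP1 and 2 and 9 at TP2, the difference 2 and 5 at TP1 and 3 and 8 at TP2, the cells alone 3 and 12, and C/D 1 (TP1), 2 (TP2) and 3 (TP2 against TP1) intragenic calls, so no count moved by over 1.5 times. Depth limits the weakest peaks, such as Bank1 +224.6 kb (median 2.09 CPM in A/B alone).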
